A study of Mus musculus with 16 samples.

Results

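Hair follicle stem cells (HFSC) of 12-week-old mice that carry a human COL17A1 transgene (hCOL17A1) were compared with HFSC of control mice of the same age. The comparison rests on 4 of the 16 arrays of the series, chosen by their labels: a tHFSC and an aHFSC array of each genotype, 2 against 2 and paired by cell state. The labels do not spell out tHFSC and aHFSC. The other 12 arrays hold HFSC of young Col17a1 conditional knockout (cKO) and aPKC cKO mice and HFSC of aged wild-type (WT) and aged hCOL17A1 mice. They also hold interfollicular epidermis (IFE) of young and aged WT and hCOL17A1 mice. Young mice were 12 weeks old and aged mice 25 to 26 months. Each is a 1-colour Agilent whole-genome mouse array of amplified RNA.

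The control mice were WT of the C57BL/6 strain. They were given RU486 on the skin, 2.5 mg for 5 days at the age of 8 weeks. RU486 is a ligand that activates progesterone-receptor-fused Cre and blocks the progesterone and glucocorticoid receptors. The hCOL17A1 mice are labelled with the transgene only: the labels name no strain, no promoter and no RU486 for them. Hair plucking, 3 days, is named for the control aHFSC array and not for the hCOL17A1 aHFSC array. RU486, plucking where it differs, strain and the transgene therefore cannot be told apart. All 4 compared samples were sorted for high CD34, high ITGA6 and no Sca1, the usual surface profile of bulge stem cells. Among the other young HFSC, both cKO conditions carry the same RU486 label as the controls. Plucking for 3 days is named for Col17a1 cKO aHFSC and not for aPKC cKO aHFSC. The labels do not say whether an array holds cells of 1 animal or of a pool. Each cell state of a condition is 1 array. The p-values therefore measure the scatter of all 12 HFSC arrays around a common aHFSC-minus-tHFSC shift, not the spread between replicates of a group.

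The arrays of the 2 genotypes also differed in sex-linked genes, which is stated before any result. Levels are given throughout as log2 of the processed signal relative to the 75th percentile of the same array. Xist, the RNA that silences an X chromosome in female cells, was at -5.00 on control tHFSC and 3.06 on control aHFSC, and at 4.76 and 4.85 on hCOL17A1 tHFSC and aHFSC. Ddx3y, on the Y chromosome, was at -0.89 and -1.75 on the controls and at -6.57 and -6.62 on the hCOL17A1 arrays. The other 8 HFSC arrays held Ddx3y between -3.49 and 0.57. The hCOL17A1 arrays were thus the lowest of all 12 HFSC arrays for Ddx3y, which was not well above background on them, and control aHFSC carried both Xist and Ddx3y signal. Genotype and these sex-linked levels cannot be told apart here.

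**Figure D1:**
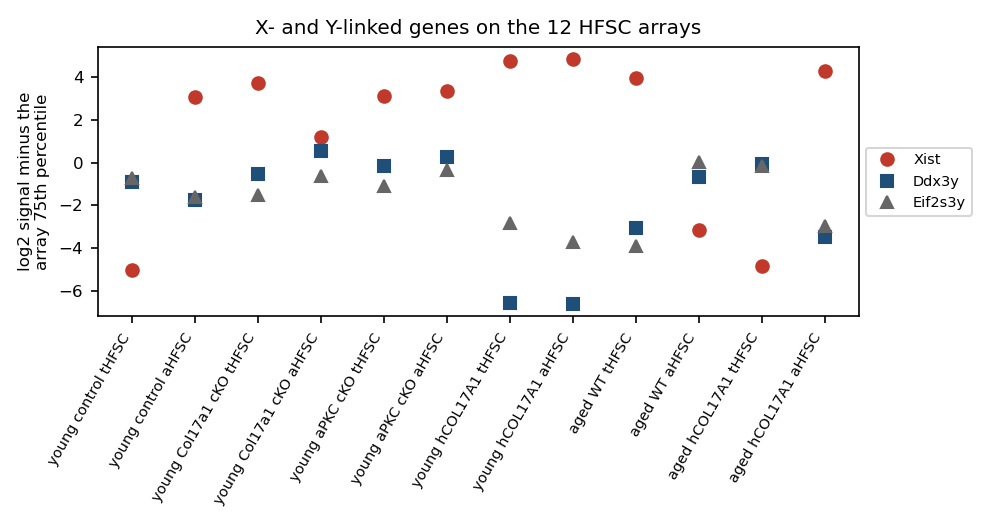
Levels of Xist, Ddx3y and Eif2s3y (log2 signal relative to the array's 75th percentile, vertical axis) on the 12 HFSC arrays, 1 point per array. The hCOL17A1 arrays lie at 4.76 and 4.85 for Xist and at -6.57 and -6.62 for Ddx3y, while the control arrays lie at -5.00 and 3.06 for Xist.

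All 4 arrays were on 1 slide and none had saturated spots. Their share of probes well above background was 74.61% to 79.86%, against 59.29% to 78.97% on the other 12 arrays. The scanner file of control tHFSC breaks off, and 9264 of its 55681 probes were filled from the authors' value table without a background flag. In bulk samples, fewer cells of a type and less RNA per cell cannot be told apart.

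COL17A1 is a transmembrane collagen of the hemidesmosome, the junction that anchors basal keratinocytes to the basement membrane, where it joins integrin alpha-6 beta-4, plectin and BPAG1. Its outer part can be shed by proteases of the ADAM family. In the hair follicle it holds bulge stem cells in their niche. Loss of COL17A1 from these cells is known for stem cell depletion and hair loss in ageing mice, and forced human COL17A1 for keeping the stem cells.

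Mouse Col17a1 and the genes of the sort were read on the same 4 arrays. They cannot check the genotype label, because all 4 samples share the sort and none of these genes measures the human transgene. The Col17a1 probe (chr19:47720894-47720953, mm9) read 7.01 and 6.16 on control tHFSC and aHFSC, and 6.97 and 6.20 on the hCOL17A1 arrays. Each cell state was level between genotypes, with a difference of -0.00 ± 0.19 (log2, SE; limma adjusted p = 0.999). The array was designed for mouse transcripts, so this value does not show how much human transgene RNA was present. Itga6 and Itgb4, the integrin partners, differed by 0.17 ± 0.20 and 0.18 ± 0.25. Cd34 read 6.08 and 4.43 on the controls and 5.66 and 3.54 on the hCOL17A1 arrays, so that aHFSC lay below tHFSC in both genotypes. Its difference was -0.66 ± 0.41 (limma adjusted p = 0.806), and that of Krt15, a bulge keratin, was -0.26 ± 0.14. Ly6a, which encodes Sca1, read -1.68 and -2.92 on the controls and -0.05 and -0.34 on the hCOL17A1 arrays. Both hCOL17A1 arrays were higher than both controls, by 2.10 ± 0.67 (limma adjusted p = 0.594), and all 4 lay below IFE, where Ly6a read 3.27 to 4.22.

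No gene passed the test between hCOL17A1 and control HFSC. Of 31145 genes, limma with Benjamini-Hochberg adjustment called 0 (0%) at an adjusted p of 0.05, and the lowest adjusted p was 0.170. At an unadjusted p under 0.05, 2220 genes (7.13%) differed, 893 (2.87%) higher and 1327 (4.26%) lower in hCOL17A1. The median SE of a gene's difference was 0.50. In simulated data of this comparison, the fit recovered 4% of genes changed by 1 log2 unit, 14% at 2 units, 52% at 3 and 64% at 4, so 2 arrays a side leave most small and moderate differences undetectable. The tHFSC and aHFSC pairs gave the same sign for 57.9% of genes, 30.2% higher and 27.7% lower in both. Across genes, which are not independent replicates, the pair differences had a Pearson r of 0.14. Values below are therefore descriptions of these 4 arrays, and no gene is named because it was called.

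Among genes with a measured signal, the 10 that stood furthest above control in both pairs were Ppp2r2c, Il22ra2, Aif1l, Acoxl, Cd55, Slc24a3, Ctla2a, Gm10389, Ifi202b and Clec2f. Their differences ran from 3.54 to 5.58 log2 units. Il22ra2, the soluble decoy receptor for interleukin-22 (probe chr10:19354355-19354414, mm9), read -3.14 and -4.44 on the controls and 2.01 and 0.99 on the hCOL17A1 arrays. Aif1l, an actin-binding protein (probe chr2:31828806-31828865, mm9), read -4.15 and -3.04 on the controls and 0.98 and 1.38 on the hCOL17A1 arrays. Ppp2r2c, a regulatory subunit of protein phosphatase 2A (probe chr5:37346000-37346059, mm9), read -3.27 and -4.10 against 2.10 and 1.70. In each of the 3 genes the genotypes were separated by more than 4 log2 units in both cell states. The differences were 5.29 ± 0.60 for Il22ra2 and 4.77 ± 0.50 for Aif1l, both at a limma adjusted p of 0.170, and 5.58 ± 0.98 for Ppp2r2c, at 0.408.

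Those 10 genes were not all quiet elsewhere. Aif1l, Clec2f and Ifi202b were higher on both hCOL17A1 arrays than on any of the other 10 HFSC arrays, a pattern that 3.09% of all genes showed. Il22ra2 read 2.05 on Col17a1 cKO tHFSC and -0.32 on Col17a1 cKO aHFSC, the first level with the hCOL17A1 arrays. Ppp2r2c read 2.59 and -0.69 on the same arrays. These 2 genes were also high in IFE, where Il22ra2 read 2.50 to 4.40 and Ppp2r2c 5.22 to 5.68. Aif1l was not an IFE gene by level: IFE read -2.58 to -1.22, below both hCOL17A1 arrays. Of the 10 genes, 8 were higher in aged WT IFE than in aged WT tHFSC, 5 of them by 8-fold or more. Cd55 encodes a complement regulator, Slc24a3 a potassium-dependent sodium/calcium exchanger and Ctla2a an inhibitor of cathepsins. Second probes of Clec2f (5.27) and Ifi202b (3.25) stood higher too, whereas that of Gm10389 gave 0.37 and that of Acoxl was well above background on only 1 of the 4 arrays.

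The 10 genes furthest below control in both pairs were Samd14, Sulf1, 9130020K20Rik, Nyap1, Cenph, Rabggta, Bmp6, Sirt4, Kctd13 and Slc38a4, with differences from -4.45 to -2.94 and limma adjusted p from 0.484 to 0.734. Bmp6, a bone morphogenetic protein that restrains HFSC (probe chr13:38591479-38591538, mm9), read 1.31 and -0.15 on the controls and -2.13 and -3.18 on the hCOL17A1 arrays. It was the 1 gene of these 10 that lay below all other 10 HFSC arrays, which held -1.03 to 1.47, a pattern of 2.3% of all genes. Nyap1, an adaptor of phosphoinositide 3-kinase signalling, read 2.72 and 2.66 on the controls and -0.85 and -0.80 on the hCOL17A1 arrays. Cenph, a kinetochore component, read -0.88 and 1.29 against -4.02 and -3.26. The value of Sirt4 depended on the probe, with -3.12 on the first and 1.0 on the second, and the second probe of Sulf1 was well above background on only 2 of the 4 arrays.

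**Figure D2:**
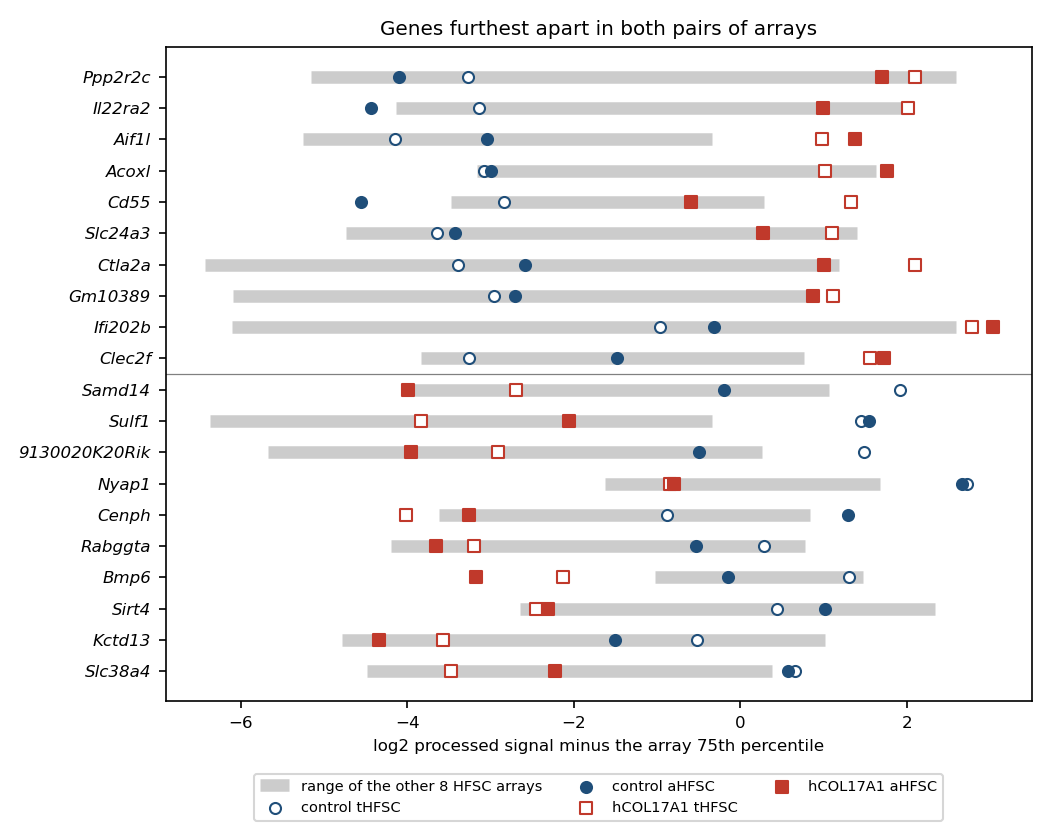
The 10 genes furthest above (upper block) and the 10 furthest below control in both pairs, with the log2 level relative to the array's 75th percentile (horizontal axis) on each control array (blue circle) and hCOL17A1 array (red square), open for tHFSC and filled for aHFSC, over a grey bar for the range of the other 8 HFSC arrays. In Il22ra2 the controls lie at -3.14 and -4.44 and the hCOL17A1 arrays at 2.01 and 0.99, and Bmp6 shows the opposite order with 1.31 and -0.15 against -2.13 and -3.18.

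The groups of genes below were lists of pathway and cell type genes. Each count is to be read beside the shares over all genes tested: 30.2% higher and 27.7% lower in both pairs, and a median difference of 0.01. Of the 31145 genes, 15804 had a difference above 0 and 15341 below 0. Both hCOL17A1 arrays lay above both controls in 21.2% of genes and below both controls in 17.4%.

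Epidermal differentiation genes stood higher in hCOL17A1 HFSC in both cell states. Of 28 measured members, 26 had a difference above 0 and 24 were higher in both pairs, with a median of 1.13 (1.12 in tHFSC, 1.18 in aHFSC). None passed the test, and 6 were higher and 1 lower at an unadjusted p under 0.05. Krt10, a keratin of the suprabasal layers (probe chr11:99247846-99247905, mm9), read 3.40 and 4.25 on the controls and 5.25 and 5.92 on the hCOL17A1 arrays. Its partner Krt1 read 1.25 and 4.52 against 4.58 and 6.38. Krtdap, a secreted differentiation protein, read 6.06 and 6.27 against 7.31 and 7.52. All 3 were higher on both hCOL17A1 arrays than on both controls, by 1.76 ± 0.58, 2.60 ± 0.86 and 1.25 ± 0.35 (limma adjusted p = 0.608, 0.612 and 0.549).

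The late cornified envelope gene Lce1a1 (2.52 and 3.86 on the hCOL17A1 arrays, 0.72 and 0.50 on the controls) and Grhl3, a transcription factor of barrier formation (0.43 and 0.63 against -4.34 and -0.28), were higher on both hCOL17A1 arrays than on every other HFSC array, and Grhl3 was not well above background on control tHFSC. Asprv1, a protease of the granular layer, differed by 2.04 ± 0.68, and Lor, the main cornified envelope protein, by 1.28 ± 0.97. The member against the direction was Sprr2a1, which was not well above background on either hCOL17A1 array. Its mean difference from the controls was -2.03 (4.08-fold lower). Over the alternative settings and with arrays left out it ran from -2.39 to -0.18. Calml3 was the other member below 0, at -0.29 ± 0.21.

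Markers of IFE and the infundibulum, cells that the Sca1 gate should leave out, moved with these genes. Of 11 measured markers, 10 were higher in both pairs, with a median of 0.72. Their summed linear signal, relative to the array's 75th percentile, was 67.7 and 126 on the controls and 150 and 266 on the hCOL17A1 arrays, against 173 to 306 in IFE and 40.6 to 192 on the other 8 HFSC arrays. The markers were thus higher on both hCOL17A1 arrays, and on hCOL17A1 aHFSC they reached the range of IFE. The same held over a wider class: of 514 genes at least 8-fold higher in aged WT IFE than in aged WT tHFSC, 65.8% were higher in young hCOL17A1 HFSC, with a median of 0.53. Of 633 genes with the reverse order, 34.9% were higher, with a median of -0.38, and of the 29998 genes between, 50.8% were higher, with a median of 0.01. Summed over the 28 epidermal differentiation genes, the signal was 362 and 438 on the controls and 595 and 960 on the hCOL17A1 arrays. In IFE that sum was 307 to 833, and on the other 8 HFSC arrays it was 168 to 768. Both controls and hCOL17A1 tHFSC lay inside both ranges, and hCOL17A1 aHFSC lay above both. Single genes differed: Lce1a1 read -5.20 to 1.68 in IFE, below its level on both hCOL17A1 arrays. Asprv1 read -0.83 to 1.39 in IFE, below its 3.43 and 4.98 on the hCOL17A1 arrays. The part of IFE and infundibular cells in the results was not tested.

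Promoter sequence is shown for 3 of these genes because they share an AP-1 motif close to the start site. The 250 bases before the first listed start of each gene are from RefSeq (GRCm38.p6), 5′ to 3′ on the gene's strand, with TGANTCA in capitals. Krtdap lies at chr7:30787655-30787904 (plus strand), Lor at chr3:92083143-92083392 (minus strand) and Ivl at chr3:92573736-92573985 (minus strand).
Krtdap: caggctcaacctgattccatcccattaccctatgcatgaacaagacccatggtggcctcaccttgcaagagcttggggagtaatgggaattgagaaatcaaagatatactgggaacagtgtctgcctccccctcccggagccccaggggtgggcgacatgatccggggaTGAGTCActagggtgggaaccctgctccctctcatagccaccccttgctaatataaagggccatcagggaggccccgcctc
Lor: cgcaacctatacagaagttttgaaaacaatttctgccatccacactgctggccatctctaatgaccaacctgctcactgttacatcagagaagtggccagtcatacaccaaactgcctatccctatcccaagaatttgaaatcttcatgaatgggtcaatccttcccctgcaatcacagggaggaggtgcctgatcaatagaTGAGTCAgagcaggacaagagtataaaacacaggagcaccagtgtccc
Ivl: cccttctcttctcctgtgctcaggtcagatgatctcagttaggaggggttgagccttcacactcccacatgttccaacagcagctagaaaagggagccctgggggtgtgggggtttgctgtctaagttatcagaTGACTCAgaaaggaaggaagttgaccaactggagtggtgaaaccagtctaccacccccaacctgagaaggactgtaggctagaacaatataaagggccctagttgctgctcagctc
The motif was in 8 of the 22 epidermal differentiation genes with a sequence (36.4%) and in 1856 of 27018 promoters of that length (6.87%), counting both strands. It ended 75 bases before the start in Krtdap, 42 in Lor and 110 in Ivl. A match describes the letters of the window and is no binding site by itself. AP-1 is made of FOS and JUN proteins, whose genes belong to the next group.

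Immediate early genes, the transcription factors and phosphatases that respond within minutes to stimulation or to dissociation of tissue, stood higher on the hCOL17A1 arrays. Of 20 measured members, 19 had a difference above 0, and the median was 1.20 (1.65 in tHFSC, 1.02 in aHFSC). In 16 members both hCOL17A1 arrays were above both controls, against 21.2% of all genes. Fosb, an AP-1 subunit, read 2.91 and 5.05 on the controls and 7.35 and 6.21 on the hCOL17A1 arrays. Fos read 2.36 and 3.51 against 5.03 and 4.41. Fosl1 (FRA-1) read -4.20 and -4.82 against -0.29 and -1.21, with control aHFSC not well above background and control tHFSC without a flag. These AP-1 genes did not overlap between genotypes, with differences of 2.80 ± 0.85, 1.79 ± 0.68 and 3.75 ± 0.97 (limma adjusted p = 0.576, 0.661 and 0.508).

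Nr4a1, an orphan nuclear receptor, read 0.07 and 1.68 on the controls and 3.66 and 3.78 on the hCOL17A1 arrays, the latter above all other 10 HFSC arrays. Dusp1, a phosphatase that turns off MAP kinases, read 4.99 and 4.24 against 6.66 and 5.86. Egr1 overlapped between genotypes, with 5.79 and 7.28 on the controls and 7.43 and 6.75 on the hCOL17A1 arrays. Control tHFSC was the lowest of all 12 HFSC arrays for Fosb and Fos. Immediate early levels also varied among the other groups. Relative to each gene's own mean over the 12 HFSC arrays, the median was -1.17 and -0.54 on the controls. It was 0.71 and 0.48 on the hCOL17A1 arrays and 1.23 on aged hCOL17A1 aHFSC. The controls thus ranked 12 and 10 of the 12 HFSC arrays for this list, and hCOL17A1 tHFSC and aHFSC ranked 2 and 4. Relative to the same controls, the other young conditions were also higher, with a median difference of 0.71 for Col17a1 cKO and 0.64 for aPKC cKO. Cell dissociation time is not in the labels, and its part was not tested.

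For Fos, Fosb and Dusp1 the 250 bases before the start are shown because they hold the half-site of the cyclic AMP response element (CRE), TGACG, in capitals; TGACGTCA is the full palindrome and contains the half-site on both strands. Fos lies at chr12:85473640-85473889 (plus strand), Fosb at chr7:19310046-19310295 (minus strand) and Dusp1 at chr17:26508473-26508722 (minus strand), GRCm38.p6, from RefSeq.
Fos: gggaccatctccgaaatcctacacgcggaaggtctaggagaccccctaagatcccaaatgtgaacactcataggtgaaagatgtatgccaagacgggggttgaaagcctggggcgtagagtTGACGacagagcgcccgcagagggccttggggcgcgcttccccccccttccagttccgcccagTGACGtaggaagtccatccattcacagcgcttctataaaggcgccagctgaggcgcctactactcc
Fosb: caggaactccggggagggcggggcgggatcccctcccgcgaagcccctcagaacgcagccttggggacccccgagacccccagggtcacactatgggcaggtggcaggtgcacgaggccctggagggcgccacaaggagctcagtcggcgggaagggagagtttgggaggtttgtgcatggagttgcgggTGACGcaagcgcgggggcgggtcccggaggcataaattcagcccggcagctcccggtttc
Dusp1: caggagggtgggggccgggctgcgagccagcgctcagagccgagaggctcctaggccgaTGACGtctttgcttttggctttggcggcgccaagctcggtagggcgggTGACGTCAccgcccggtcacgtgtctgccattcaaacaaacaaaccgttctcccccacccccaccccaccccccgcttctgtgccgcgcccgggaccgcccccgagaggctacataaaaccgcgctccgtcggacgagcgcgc
The half-site was in 9 of 15 immediate early genes with a sequence (60%) and in 4827 of 27018 promoters (17.9%), both strands counted. The full palindrome was in 2 of the 15, Btg2 and Dusp1, and in 1.62% of all promoters. The AP-1 motif TGANTCA was in 0 of these 15 windows.

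**Figure D3:**
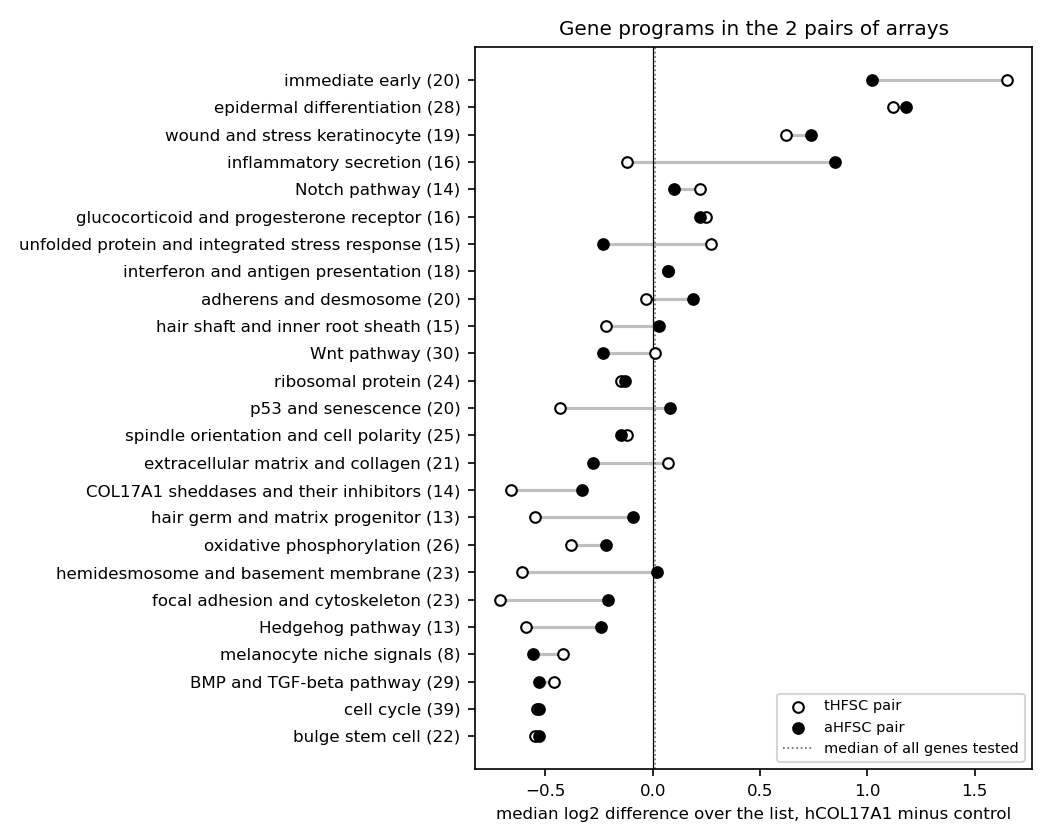
Median difference hCOL17A1 minus control (log2, horizontal axis) over each pathway list, with the number of genes in brackets, an open circle for the tHFSC pair, a filled circle for the aHFSC pair and a dotted line at the median of all genes (0.01). Immediate early (1.65 and 1.02) and epidermal differentiation (1.12 and 1.18) lie furthest to the right in both pairs, and bulge stem cell genes lie at -0.55 and -0.53.

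Wound and stress keratins and growth factors were less uniform. Of 19 members, 14 lay above 0, 10 were higher in both pairs and the median was 0.66. Relative to the same controls, the median was 1.16 for Col17a1 cKO and 0.61 for aPKC cKO. Against the 3 young conditions labelled with RU486 the hCOL17A1 median was 0.15, with 11 members above and 8 below 0. Areg, an EGF receptor ligand, read -3.86 and -5.52 on the controls, the second not well above background, and -0.84 and -1.71 on the hCOL17A1 arrays, 3.42 ± 0.80 higher. Krt16, a keratin of activated epidermis, read -2.81 and 2.19 against 2.48 and 3.21. The tHFSC pair differed by 5.30 and the aHFSC pair by 1.02. Itga5, the fibronectin receptor subunit, was not well above background on the hCOL17A1 arrays. Its mean difference over the 2 pairs was -3.39 (10.5-fold lower). Its level of 1.08 on control tHFSC was not shared by control aHFSC at -3.49, and without control tHFSC the fitted value was -1.46. In the inflammatory list of 16 members the median was -0.12 in tHFSC and 0.85 in aHFSC. Its 2 members with an unadjusted p under 0.05 were the cytokines Il18 (2.57 ± 0.85, not well above background on control aHFSC) and Csf1 (1.64 ± 0.60), both higher.

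Bulge stem cell genes stood lower in hCOL17A1 HFSC. Of 22 measured members, 20 had a difference below 0, 17 were lower in both pairs and 0 higher in both, with a median of -0.61 (-0.55 in tHFSC, -0.53 in aHFSC). Wif1, a secreted Wnt inhibitor, read 0.25 and -0.97 on the controls and -1.25 and -3.67 on the hCOL17A1 arrays. Foxc1, a factor of HFSC quiescence, read 2.17 and 0.95 against 0.55 and -0.38. Sox9, a factor of HFSC identity, read 5.32 and 5.00 against 4.62 and 4.48. All 3 were lower on both hCOL17A1 arrays than on both controls, with differences of -2.10 ± 0.43, -1.48 ± 0.31 and -0.61 ± 0.15 (limma adjusted p = 0.484, 0.484 and 0.489). Lhx2, another identity factor, read 5.78 and 5.53 against 5.03 and 4.83. Lgr5, an R-spondin receptor of cycling follicle stem cells, read 3.52 and 3.70 against 2.79 and 3.07. For Lhx2 and Lgr5 the hCOL17A1 arrays were the lowest 2 of the 12 HFSC arrays. Cd34, a marker of the sort given above, lay near the list's median at -0.66, and Lhx2 stayed far above IFE, where it read -2.49 to -1.11.

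**Figure D4:**
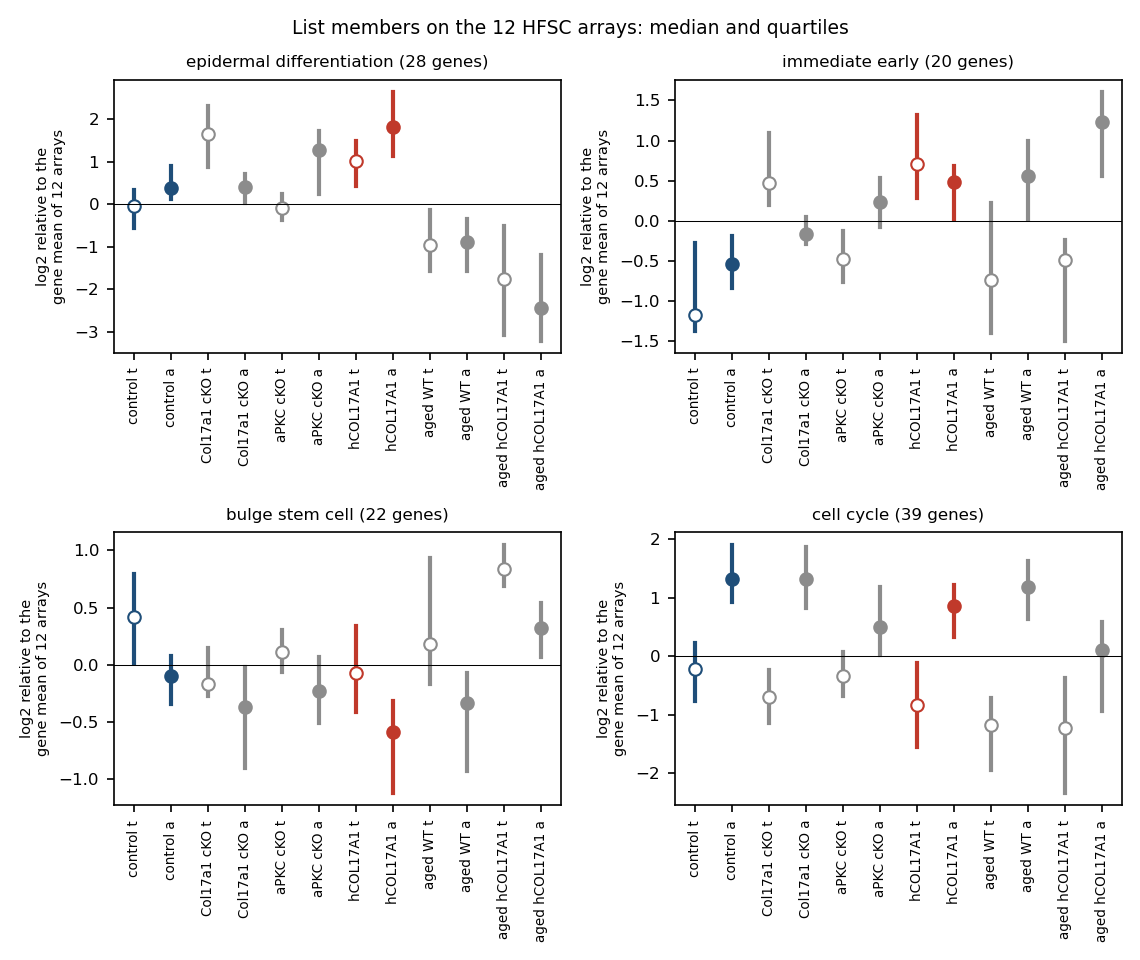
Levels of 4 gene lists on each of the 12 HFSC arrays, each gene relative to its mean over these arrays (log2, vertical axis), as the median (circle, open for tHFSC, filled for aHFSC) and quartiles (bar) over the genes, with controls in blue, young hCOL17A1 in red and the other arrays in grey. The epidermal differentiation median is 1.02 and 1.82 on the young hCOL17A1 arrays and -1.75 and -2.43 on the aged hCOL17A1 arrays, and the bulge median is -0.07 and -0.59 on the young hCOL17A1 arrays against 0.42 and -0.10 on the controls.

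Hemidesmosome and basement membrane genes, the direct surroundings of COL17A1, lay mostly below 0. The median of 23 members was -0.36 (-0.61 in tHFSC, 0.02 in aHFSC), with 18 below 0 and 10 lower in both pairs. Lamb3, a chain of laminin-332, read 4.67 and 3.67 on the controls and 3.82 and 3.38 on the hCOL17A1 arrays. Itga3, a laminin receptor subunit, read -0.63 and -0.19 against -1.92 and -2.40, and Itga3 and Col7a1, the anchoring fibril collagen, were below all other 10 HFSC arrays. Their differences were -0.57 ± 0.23 for Lamb3, -1.76 ± 0.71 for Itga3 and -0.36 ± 0.27 for Col7a1. Krt5 and Krt14, the basal keratins that attach to hemidesmosomes, differed by -0.13 ± 0.13 and 0.23 ± 0.29.

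Among the proteases that can shed COL17A1 and their inhibitors, 11 of 14 members lay below 0, with a median of -0.25. Adam9 went the other way: it read 1.96 and 1.32 on the controls and 2.68 and 2.42 on the hCOL17A1 arrays, above all other 10 HFSC arrays (0.91 ± 0.38, limma adjusted p = 0.693). Adam10 and Adam17, the other main sheddases, differed by -0.12 ± 0.23 and -0.13 ± 0.62. Focal adhesion and cytoskeleton genes stood lower in 18 of 23 members, with a median of -0.37. Ilk, the integrin-linked kinase, read 0.42 and 0.50 on the controls and -0.78 and -0.40 on the hCOL17A1 arrays, and Ptk2, the focal adhesion kinase, read -0.01 and -0.38 against -2.14 and -3.40. Both kinases were lower on the hCOL17A1 arrays than on all other HFSC arrays, with differences of -1.05 ± 0.29 and -2.58 ± 0.95.

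Several transcription factors of the hair germ and matrix stood lower in hCOL17A1 HFSC. Hoxc13, a regulator of hair keratins (probe chr15:102759058-102759117, mm9), read 0.57 and 0.92 on the controls and -4.11 and -1.60 on the hCOL17A1 arrays, a difference of -3.60 ± 0.63 (limma adjusted p = 0.408). The other 8 HFSC arrays held it between 0.10 and 1.24, and IFE between -5.13 and -2.57. Both hCOL17A1 arrays were therefore below every other HFSC array, and hCOL17A1 tHFSC lay inside the IFE range. Msx2, Trps1 and Runx1 were also below all other 10 HFSC arrays, with differences from control of -1.90 ± 0.50, -1.45 ± 0.39 and -1.59 ± 0.53. Foxn1, a factor of hair shaft differentiation, went the other way in aHFSC and was level in tHFSC (-0.47 and 0.62 against -0.48 and -1.76), with both hCOL17A1 arrays above all other 10 HFSC arrays. Over the 13 members of the list the median was -0.27, with 9 below 0. Gata3, a factor of the inner root sheath lineage, stood higher (3.47 and 3.26 against 2.67 and 2.65).

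BMP and TGF-beta genes, whose signals keep bulge cells quiescent, lay below 0 in 23 of 29 members, 17 of them lower in both pairs, with a median of -0.57. Beside the ligand Bmp6, the latent TGF-beta binding protein Ltbp1 read 5.42 and 4.04 on the controls and 3.83 and 2.79 on the hCOL17A1 arrays. The antagonist Grem1 read 5.90 and 4.99 against 4.96 and 4.34. Ligand, binding protein and antagonist were thus lower together in each pair, with differences of -1.42 ± 0.30 for Ltbp1 and -0.80 ± 0.19 for Grem1 (limma adjusted p = 0.484 and 0.489). Of the target genes, Id1 differed by -1.0 ± 0.40 and Id2 by -0.09 ± 0.41.

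In the Hedgehog list 9 of 13 members lay below 0, with a median of -0.38, and 5 of them had an unadjusted p under 0.05. The controls ranked 1 and 2 of the 12 HFSC arrays for this list, and hCOL17A1 tHFSC and aHFSC ranked 6 and 5. Against the 3 young conditions labelled with RU486 (control and both cKO) the hCOL17A1 median was -0.07. Col17a1 cKO minus control had a median of -0.50. The co-receptor Gas1 read 5.40 and 5.01 on the controls and 4.29 and 3.93 on the hCOL17A1 arrays. The transcription factor Gli3 read 2.10 and 1.69 against 0.86 and 0.72. Both were below all other 10 HFSC arrays, as was the inhibitor Sufu, with differences of -1.09 ± 0.24, -1.11 ± 0.28 and -2.50 ± 0.90. The receptor Ptch1, itself a target, differed by -1.57 ± 0.49 and Gli1, the usual readout of the pathway, by -0.38 ± 0.66.

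Wnt genes split evenly, 15 above and 15 below 0, with a median of -0.10. The receptors Fzd1 and Fzd7 and the R-spondin receptor Lgr4 stood lower, with differences of -1.23 ± 0.31, -0.62 ± 0.26 and -0.82 ± 0.28. The transcription factor Tcf7 read -1.18 and 0.00 on the controls and -3.64 and -1.74 on the hCOL17A1 arrays. The inhibitors were not alike: the membrane protein Apcdd1 stood higher, at -2.64 and -2.66 against -0.83 and -0.73, and the secreted Wif1, described above, stood lower. Axin2, a target gene, differed by 0.10 ± 0.45. In the Notch list of 14 members the median was 0.26 and none had an unadjusted p under 0.05. Hey1, a Notch target, read -0.74 and -1.38 on the controls and -4.12 and -6.53 on the hCOL17A1 arrays, where it was well above background on tHFSC only.

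Cell polarity and spindle orientation genes are of interest in this series because it includes an aPKC knockout. Their median over 25 members was -0.18, with 10 above and 15 below 0. Llgl2, a basolateral polarity protein that aPKC phosphorylates (probe A_51_P348749), read -2.28 and -2.03 on the controls and 1.09 and 0.57 on the hCOL17A1 arrays. It was above all other 10 HFSC arrays, by 2.99 ± 0.61 against control (limma adjusted p = 0.484), and its second probe gave 3.00. Pard6b, an aPKC partner, was also above all other HFSC arrays (-3.09 and -2.02 against -6.42 and -3.32). Gpsm2 (LGN), which orients the spindle, read 1.73 and 1.91 on the controls and 0.44 and 0.87 on the hCOL17A1 arrays, and the planar polarity protein Vangl2 read 4.32 and 3.89 against 3.04 and 3.07. Both lay below all other 10 HFSC arrays, with differences of -1.16 ± 0.31 and -1.05 ± 0.25. Prkci, which encodes aPKC iota, differed by less, with 4.25 and 4.37 against 4.10 and 3.60.

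Cell cycle genes lay below 0 in 30 of 39 members, 20 of them lower in both pairs, with a median of -0.58. Relative to each gene's mean over 12 HFSC arrays, the median was -0.22 and 1.33 on the controls and -0.83 and 0.86 on hCOL17A1. It was also 1.33 on Col17a1 cKO aHFSC, the other array labelled with plucking. On the other aHFSC arrays without that label it was 1.18 for aged WT, 0.5 for aPKC cKO and 0.11 for aged hCOL17A1. Against the 3 young conditions labelled with RU486 the median difference was -0.27, and aPKC cKO minus control gave -0.48. On both hCOL17A1 arrays together, 0 members lay above or below all other 10 HFSC arrays. Ccnb1, the mitotic cyclin, read -0.07 and 1.34 on the controls and -4.61 and 0.12 on the hCOL17A1 arrays. Uhrf1, a DNA methylation factor of S phase, read 3.61 and 5.80 against 2.15 and 4.83. Mki67, a proliferation marker, read 2.44 and 4.31 against 0.71 and 3.32. Both Uhrf1 and Mki67 were lower in each pair, whereas Ccnb1 was not well above background on hCOL17A1 tHFSC. Top2a was higher in the tHFSC pair and lower in the aHFSC pair, at -2.91 and -0.63 against -2.41 and -1.07. Within each genotype aHFSC stood above tHFSC: the median shift over the 39 genes was 1.58 in control and 1.47 in hCOL17A1, although plucking is named for only 1 of these aHFSC arrays.

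The difference in that aHFSC-minus-tHFSC shift between genotypes was also tested, with 3 residual degrees of freedom. Limma called 0 of 31145 genes (0%), with 1392 (4.47%) at an unadjusted p under 0.05, 2.06% higher and 2.41% lower, and a lowest adjusted p of 0.335. Of the 10 genes named from this order, 5 were signals on 1 array (Lin52, Commd4, Ifnb1, Fam83e and Gm11346). Gm11346 read 11.67 on hCOL17A1 tHFSC and -4.12, -3.81 and -4.09 on the other 3 arrays. Lin52 read 7.54 on control tHFSC and 1.01, 0.68 and 0.89 on the others, and its other 2 probes showed no such peak. Commd4 showed the same pattern as Lin52, with 7.66 on control tHFSC and 0.51, 0.17 and -0.08 elsewhere. These values rest on 1 array each. In the other 5 genes more than 1 array took part: Ccdc18, for example, read -4.13 and -1.13 on control tHFSC and aHFSC and -0.29 and -3.10 on hCOL17A1 tHFSC and aHFSC, a shift up in control and down in hCOL17A1.

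Metabolic and ribosomal genes gave small, same-sided values. Of 24 ribosomal protein genes 22 lay below 0, with a median of -0.16 and a range of -0.39 to 0.24, and none had an unadjusted p under 0.05. Of 26 oxidative phosphorylation genes 21 lay below 0, with a median of -0.32. Sdhc, a subunit of succinate dehydrogenase, read 3.38 and 3.18 on the controls and 1.72 and 1.90 on the hCOL17A1 arrays, below all other 10 HFSC arrays (-1.48 ± 0.24, limma adjusted p = 0.379). In the list of p53 targets and senescence genes the median was -0.16. Its cell cycle inhibitor Cdkn1a read -2.48 and -0.39 against 1.34 and 1.48, and Trp53 itself 1.29 and 1.81 against -1.16 and 1.31.

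Markers of other cells that a skin sort can hold were read on the same arrays. Of 13 Langerhans and myeloid markers 10 lay above 0, with a median of 1.26 (0.06 in tHFSC, 1.78 in aHFSC). With only probes well above background on all 12 HFSC arrays that median was 0.15. Col17a1 cKO minus control gave 1.11 in tHFSC and 0.03 in aHFSC. The class II gene H2-Aa read -5.53 and -1.93 on the controls and 1.30 and 1.02 on the hCOL17A1 arrays, above all other HFSC arrays, with control tHFSC not well above background. H2-Ab1 read 0.20 and 0.31 against 2.43 and 3.47. The leukocyte marker Ptprc (CD45) did not follow, with -0.69 and -0.88 against -1.16 and -1.08, and Cd207 (langerin) was high on hCOL17A1 aHFSC alone, at -0.87 against -3.61 to -3.47. The summed signal of the 13 markers was 309 and 274 on the controls and 331 and 344 on the hCOL17A1 arrays. Most of it came from Itgam, which read 7.99 to 8.23 on all 4. On the other 8 HFSC arrays the sum was 283 to 384, so both hCOL17A1 sums lay inside that range.

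Hemoglobin genes stood higher as well: the summed signal of 5 erythrocyte markers was 7.24 and 11 on the controls and 36.5 and 23.6 on the hCOL17A1 arrays, against 0.852 to 16.5 on the other 8 HFSC arrays. Hba-a1 read 2.28 and 2.48 against 4.37 and 3.91. T cell markers summed to 8.75 and 8.35 against 10.4 and 11.4, and melanocyte markers to 4.60 and 5.95 against 3.65 and 2.73. Sebaceous gland markers summed to 6.95 and 13.5 on the controls and 26.7 and 16 on the hCOL17A1 arrays, and fibroblast markers to 33.2 and 29.0 against 23.2 and 19.8. The erythrocyte and sebaceous sums were thus higher and the fibroblast and melanocyte sums lower on both hCOL17A1 arrays than on both controls. On the other 8 HFSC arrays the sums were 7.0 to 34.3 for sebaceous, 14.2 to 71.3 for fibroblast, 2.39 to 5.54 for melanocyte and 6.62 to 11.7 for T cell markers. For each of these lists the hCOL17A1 sums lay inside that range. Gene by gene the fibroblast markers were mixed, with 4 of 9 above 0 and a median of -0.09 (0.21 in tHFSC, -0.42 in aHFSC). The part of these cells in the other results was not tested.

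Because RU486 blocks the glucocorticoid receptor and is labelled only on the controls, glucocorticoid-responsive genes were read as a list. Of 16 members 10 lay above 0, with a median of 0.25. Against the 3 young conditions labelled with RU486 the median was 0.13. In aged HFSC, with no RU486 label in either genotype, hCOL17A1 minus WT had a median of 0.55 (-0.48 in tHFSC, 1.55 in aHFSC). There 13 of the 16 members lay above 0. The part of RU486 was not tested. Fkbp5 read 0.33 and 0.81 on the controls and 2.01 and 1.05 on the hCOL17A1 arrays, and Tsc22d3 (GILZ) read 6.77 and 4.72 against 6.87 and 5.37. Both classical targets were higher in each pair, by 0.96 ± 0.77 and 0.37 ± 0.77 (limma adjusted p = 0.859 and 0.949), and without control aHFSC the fitted value of Tsc22d3 was -0.25. Nr3c1, the receptor gene, read 3.42 and 2.50 against 2.42 and 1.95.

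The hCOL17A1 arrays were then set against all 3 young conditions labelled with RU486 (control, Col17a1 cKO and aPKC cKO; 6 arrays). Limma again called 0 genes (0%), with 2312 (7.42%) at an unadjusted p under 0.05, 3.12% higher and 4.31% lower, and a lowest adjusted p of 0.138. This contrast holds the same hCOL17A1 arrays and both control arrays, so its values are not independent of those above. Its medians were 0.73 for epidermal differentiation, 0.84 for immediate early and -0.35 for bulge genes, against 0.04 over all genes. Aif1l differed by 3.77 ± 0.41 (limma adjusted p = 0.138) and Hoxc13 by -3.56 ± 0.52 (limma adjusted p = 0.280). The same control arrays serve the cKO comparisons, so those values are only set side by side. Relative to control, the epidermal differentiation median was 1.69 for Col17a1 cKO tHFSC and -0.06 for Col17a1 cKO aHFSC, where hCOL17A1 gave 1.12 and 1.18. The bulge median was -0.56 and -0.17 for Col17a1 cKO, where hCOL17A1 gave -0.55 and -0.53.

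In HFSC of mice aged 25 to 26 months, which share no array with the young comparison and carry no RU486 label in either genotype, several groups lay on the other side of 0. The transgene difference (hCOL17A1 minus WT) of the epidermal differentiation list had a median of -1.01 in aged HFSC (-0.66 in tHFSC, -1.23 in aHFSC) and 1.13 in young HFSC. The bulge list had a median of 0.55 in aged HFSC, with 21 of 22 members above 0, and -0.61 in young HFSC. Over all genes the median was -0.23 in aged HFSC. Immediate early genes had a median of 0.54 in aged HFSC (-0.37 in tHFSC, 0.72 in aHFSC) and 1.20 in young HFSC. Ribosomal protein genes lay at 0.36 in aged and -0.16 in young HFSC.

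The difference between the ages was tested gene by gene, with age and slide not to be told apart. Limma called 0 of 31145 genes (0%), while 3598 (11.6%) had an unadjusted p under 0.05, 6.24% higher and 5.32% lower in the young comparison, and the lowest adjusted p was 0.215. Of the 28 epidermal differentiation genes 11 were higher and 1 lower at that unadjusted p. Of the 22 bulge genes 10 were lower and 0 higher. For Sox9 the transgene difference was -0.61 in young and 0.85 in aged HFSC, a difference between ages of -1.46 ± 0.21 (limma adjusted p = 0.215). Lce1a1 gave 2.58 and -5.79, 8.37 ± 1.42 apart (limma adjusted p = 0.271), and Flg, encoding filaggrin, gave 0.71 and -7.04, 7.75 apart. For Aif1l the ages differed by 5.66 ± 0.71 (limma adjusted p = 0.215), and its level in aged HFSC was -5.25 to -3.41 over both genotypes. Sex-linked levels differed between the aged arrays too, with Xist at 3.96 and -3.16 on aged WT tHFSC and aHFSC and at -4.83 and 4.28 on aged hCOL17A1 tHFSC and aHFSC. The aged hCOL17A1 arrays had the fewest probes well above background of the series, 68.92% and 59.29%, and the part of this in the low aged values was not tested.

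**Figure D5:**
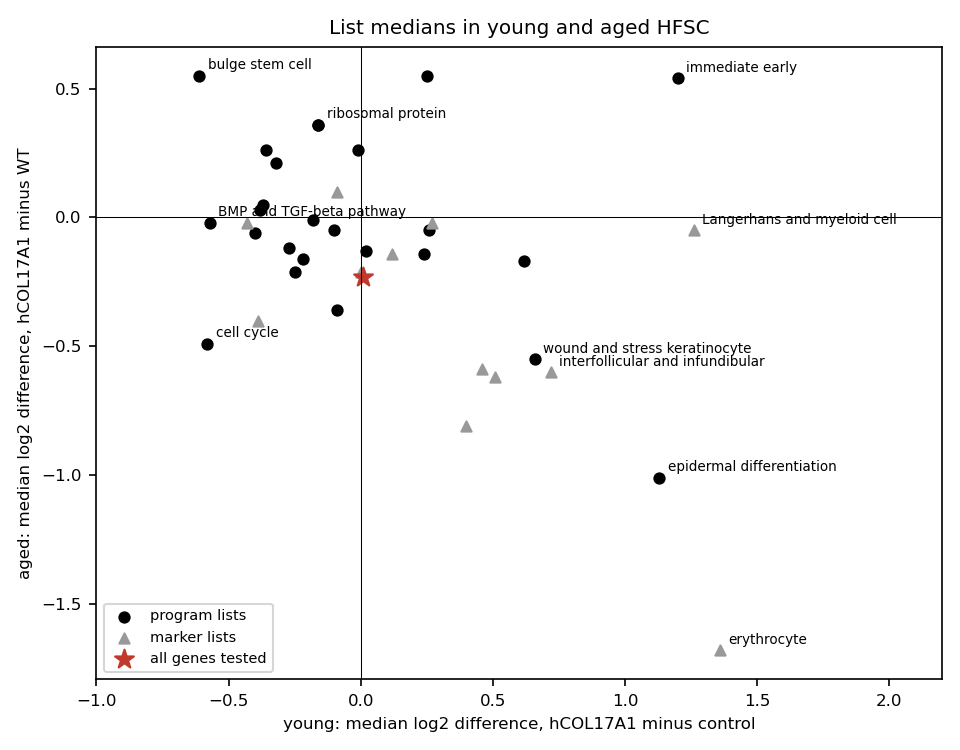
Median transgene difference (log2) of each gene list in young HFSC (horizontal axis, hCOL17A1 minus control) and in aged HFSC (vertical axis, hCOL17A1 minus WT), with circles for pathway lists, triangles for cell type markers and a star for all genes tested (0.01 and -0.23). Epidermal differentiation lies at 1.13 in young and -1.01 in aged HFSC and bulge stem cell genes at -0.61 and 0.55, while immediate early genes lie at 1.20 and 0.54.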

How the data were processed

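Sorted HFSC were measured on 1-colour Agilent arrays. Intensity values are the authors' deposited scanner output, gProcessedSignal, extracted with Agilent Feature Extraction 11.5.1.1 per the file headers. The deposited value table, on a log2 scale centred on each array's 75th percentile, filled the 9264 probes missing from the broken file of control tHFSC. Here log2 intensity minus the array's 75th percentile was fitted with limma 3.58.1 (R 4.3.3; trend, Benjamini-Hochberg over 31145 genes, threshold 0.05). The fit held 12 HFSC arrays, 6 conditions and a common tHFSC to aHFSC shift, with 5 residual degrees of freedom. The shift difference used 3. Control spots and outlier flags were left out. A probe needed 2 arrays well above background, and 1 probe stands for a gene. Of 55681 probes, 28354 were named by accession in RefSeq and 23867 keep the file's name.

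The comparison and the gene lists were chosen with earlier results of these data known, so lists are described by counts and medians. Genes were named by these rules: the 10 per direction furthest apart in both pairs, by the smaller pair difference, among genes well above background on each of the 4 arrays that had a flag; up to 3 per pathway list and 2 per marker list by unadjusted p; the sort, hemidesmosome and hormone receptor genes; and 5 per direction for the shift. Other members named in the text (such as Lhx2, Lgr5, Fos, Lor, Ptk2 and H2-Ab1) were chosen after their values were seen. The fit was tested on simulated data. Levels of different probes are not comparable, and array number limits precision. Alternatives were 13 settings of background, scaling, filter, probe choice and design, and leaving out each of 12 arrays.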

Additional observations from a re-analysis of the deposited data

Results flagged for a closer look

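The epidermal differentiation list had a median transgene difference of 1.13 in young and -1.01 in aged HFSC, and the median over its 28 genes of the difference between ages was 2.53 log2 units. It stands out because the medians of both young pairs lay above 0 and those of both aged pairs below 0, each by 0.5 or more. For the list the difference was not tested. Gene by gene, limma called 0 of its members at an adjusted p of 0.05, with 11 higher and 1 lower at an unadjusted p under 0.05. The aged arrays are on the other slide, so age, slide and the absence of an RU486 label cannot be told apart.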

How the results depend on the processing

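The count of 0 genes between young hCOL17A1 and control HFSC became 1 with normexp background correction (Aif1l, 3.15 ± 0.22, limma adjusted p = 0.028) and ranged from 0 to 3 when single arrays were left out (3 without young control aHFSC, Lin52 and Commd4 among them, and 1, Gm11346, without young hCOL17A1 aHFSC). The contrast with all RU486-labelled conditions called 2 genes with normexp and 0 to 1 with an array left out. The difference between ages called 0 to 48 genes: 48 without aged hCOL17A1 tHFSC, 5 without young control aHFSC, 2 without aged WT aHFSC and 1 without young hCOL17A1 aHFSC. The shift difference called 10 genes with normexp and 1 with all 16 arrays in the fit. The causes were not tested; an arm left with 1 array is assumed to vary like the others. The other alternatives gave 0.

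Signs turned for Sirt4 (0.76 with normexp, 1.0 with only probes in all scanner files), Oas1a (-0.09 with those probes and with probes well above background on all 12), Mbp (-0.83 to 1.81 with single arrays left out, lowest without young hCOL17A1 aHFSC), Ckm (-0.03 to 1.54, lowest without young control aHFSC), Tsc22d3 (-0.25 without young control aHFSC), Col17a1 (0.05 with quantile scaling, 0.02 without either tHFSC array) and Itga6 (-0.01 with the mean of probes, -0.04 to 0.37 with single arrays left out, lowest without young hCOL17A1 aHFSC). Of 925 alternative list medians 826 moved by less than the spread. With arrays left out the median ran from 0.74 to 1.51 for epidermal differentiation, 0.88 to 1.75 for immediate early, -0.64 to -0.49 for bulge, and 0.09 (without hCOL17A1 aHFSC) to 1.90 for Langerhans and myeloid markers. Pairing by cell state is part of the design; without it the count between young hCOL17A1 and control HFSC stayed 0.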

Other observations

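Pigment cell signals of the bulge formed a small list. Of 8 measured genes through which follicle stem cells act on melanocytes, 6 were lower in both pairs, with a median of -0.40. Kitl, the ligand of the KIT receptor, read 0.06 and 2.04 on the controls and -1.76 and -1.62 on the hCOL17A1 arrays, below all other 10 HFSC arrays (-2.74 ± 0.82, limma adjusted p = 0.576). Nfib, a transcription factor of this niche, read 7.27 and 6.57 against 6.89 and 6.09. Dct, a melanin synthesis enzyme, read -0.11 and -0.54 on the controls and -3.67 and -1.96 on the hCOL17A1 arrays, whereas the melanocyte factor Sox10 read -2.20 and -2.15 against -1.57 and -1.50. Ligand and enzyme were thus lower and Sox10 higher on both hCOL17A1 arrays.

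In IFE of young mice, with 1 array per genotype and no test, the same list medians (hCOL17A1 minus WT) were 0.82 for epidermal differentiation, 0.81 for immediate early and 0.55 for bulge stem cell genes, against 0.11 over all genes.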
